A study of Homo sapiens with 12 samples.

Results

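Cyclin E, its kinase CDK2 and 6 further rows of the counts table were examined: CCNE1, CCNE2, CDK2, CCNA2, CDC25A, CKS1B, SKP2 and FBXW7. They were 8 of 19225 entries, and all 8 passed the filter on low counts. CCNE1 was selected on its own values in these libraries, which were lower in each of the 4 knockdown groups than in the controls. The other 7 were chosen by their known roles beside CCNE1, with earlier results of these data known. The knockdown values of CCNE1 are therefore given as a description and without a test.

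The libraries came from HN6 and HN30, established cell lines of oral squamous cell carcinoma (OSCC). Each line was transfected with a scrambled negative control siRNA (NC) or with 1 of 2 siRNAs against FAT1, an atypical cadherin, named siFAT1-1 and siFAT1-2, and RNA was taken after 24 h. This gave 6 conditions with 2 libraries each, from repeats at separate times, or 12 libraries with 26430049 to 47639010 counts. The sample titles write sh1 and sh2 where the descriptions and methods speak of siRNAs. The p-values measure the spread between libraries of these 2 lines and not between tumours. In the fits within a line, of the interaction and of NC alone, this is the spread between repeats. With both siRNAs and both lines together, it also holds differences between the siRNAs and differences in response between the lines. The fits for each siRNA over both lines also hold the latter.

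The passage from G1 into S phase is driven by cyclin E bound to the kinase CDK2. Cyclin E is made under control of the RB and E2F proteins, and the finished kinase is switched on when CDC25A removes inhibitory phosphates. Cyclin A2 takes over CDK2 once S phase has begun. The level of cyclin E protein is limited by FBXW7, the substrate receptor of an SCF ubiquitin ligase that marks phosphorylated cyclin E for destruction. SKP2 is the receptor of another SCF ligase and, with the small protein CKS1B, marks the CDK inhibitor p27 (CDKN1B) for destruction. CCNE1 lies in 19q12, a region that is often amplified in carcinomas.

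The sequences before the start site are shown for the 2 members whose 8 knockdown libraries all lay on 1 side of the controls (CCNE1 and FBXW7) and for CDC25A, in which an E2F motif was found. They are the 250 bases upstream of the RefSeq start (GRCh38.p14), 5′ to 3′ on the strand of the gene, in lower case with a motif match in capitals. The CCNE1 stretch is chr19:29811741-29811990 (plus strand), that of CDC25A is chr3:48188418-48188667 (minus strand), and that of FBXW7 is chr4:152536093-152536342 (minus strand), before the most upstream of its 4 listed starts.
CCNE1: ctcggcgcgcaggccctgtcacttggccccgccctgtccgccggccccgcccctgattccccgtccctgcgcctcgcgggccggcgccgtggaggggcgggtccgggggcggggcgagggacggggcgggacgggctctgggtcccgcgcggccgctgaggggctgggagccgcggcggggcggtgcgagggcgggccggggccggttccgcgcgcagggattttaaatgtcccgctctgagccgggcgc
CDC25A: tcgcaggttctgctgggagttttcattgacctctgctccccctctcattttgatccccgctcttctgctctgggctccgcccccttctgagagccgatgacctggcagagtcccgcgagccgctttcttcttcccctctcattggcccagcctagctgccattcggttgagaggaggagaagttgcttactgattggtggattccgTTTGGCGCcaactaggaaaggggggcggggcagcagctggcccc
FBXW7: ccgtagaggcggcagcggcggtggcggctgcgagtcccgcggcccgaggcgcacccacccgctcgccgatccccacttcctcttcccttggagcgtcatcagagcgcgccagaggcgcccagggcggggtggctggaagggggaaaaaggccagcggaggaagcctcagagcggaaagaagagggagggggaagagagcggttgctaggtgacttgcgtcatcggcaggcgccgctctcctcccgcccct

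Promoters of 6 of the 8 members were listed, and CDK2 and CCNE2 are named only. The letters of an E2F motif (TTTCCCGC, TTTCGCGC, TTTGCCGC or TTTGGCGC, either strand) were present in 979 of 35116 RefSeq promoters of this length, or 2.79%. Among the members they occurred in CDC25A, 44 bases before the start, where the match is in capitals above. The letters of the CHR motif of cell cycle genes (TTTGAA, either strand) were in 13.3% of promoters. They occurred 30 bases before the start of CKS1B (chr1:154974431-154974680) and 210 bases before another start of FBXW7 (chr4:152352827-152353076). CCNE1, CCNA2 and SKP2 had neither. A match is only a string of letters, and its absence says nothing about binding.

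Each of the 8 knockdown libraries had less FAT1 than the controls of the same line. In HN6 it was at 61.8 ± 6.99 CPM (reads of the gene scaled to library size, mean ± SD, n = 2) with NC, 10.6 ± 4.19 with siFAT1-1 and 17.3 ± 5.76 with siFAT1-2. In HN30 it was at 14.2 ± 0.784 CPM with NC, 5.56 ± 0.988 with siFAT1-1 and 9.26 ± 2.15 with siFAT1-2, so that 65.4% of the NC level remained in HN30 with siFAT1-2. All 8 squamous epithelial markers were detected in each HN6 library and 7 or 8 in each HN30 library, and their summed level per library was 1181 to 5973 CPM. Of the 8 markers of other cell types, the leukocyte genes PTPRC and CD3E, the endothelial PECAM1 and the fibroblast COL3A1 had at most 1, 11, 9 and 16 counts in any library and VWF at most 47. CD68, COL1A1 and PDGFRB were present in all libraries, with up to 121 CPM, 146 CPM and 9.37 CPM, and the summed level of the 8 was 131 to 272 CPM in HN6 and 40.2 to 67.7 CPM in HN30. This sum was higher in HN30 with knockdown (48 to 67.7 CPM) than with NC (40.2 and 40.4 CPM), and its part in the results was not tested. Repeats of a condition correlated at r = 0.942 (HN6 NC) to 0.990 (HN30 siFAT1-1) across genes. The proliferation marker MKI67 was 7.13-fold higher in repeat 2 than in repeat 1 of HN6 siFAT1-2 and 3.74-fold higher in repeat 2 of HN30 siFAT1-2. Between the HN6 NC libraries it was 2.97-fold higher in repeat 1. The summed level of the 8 proliferation markers went the other way there, at 1405 CPM in repeat 1 and 1781 CPM in repeat 2. CDKN1A, the p53 target p21, stood at 3999 CPM in repeat 1 of HN30 siFAT1-2 and at 779 CPM in repeat 2. In these bulk libraries, fewer cycling cells and less RNA of a gene per cell cannot be told apart.

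CCNE1 encodes cyclin E1 and lies at chr19:29811991-29824312 (GRCh38, plus strand, 12 exons in the canonical transcript). In HN6 it was at 20.2 and 21.2 CPM with NC, 7.0 and 8.25 CPM with siFAT1-1 and 2.38 and 4.54 CPM with siFAT1-2. In HN30 it was at 27.7 and 11.8 CPM with NC, 3.37 and 3.36 CPM with siFAT1-1 and 7.32 and 3.14 CPM with siFAT1-2. The highest knockdown library of HN30 therefore lay below the lower NC library, although the 2 NC libraries of HN30 differed 2.36-fold. Group means with siFAT1-1 and siFAT1-2 were 36.8% and 16.7% of the NC mean in HN6, and 17% and 26.5% in HN30. Over both lines the fitted log2 fold change was -2.05 (SE 0.34), with -2.01 (SE 0.41) in HN6 and -2.23 (SE 0.42) in HN30. Against the NC library of the same repeat, the difference in log2 CPM ran from -3.06 to -1.36 over the 8 knockdown libraries.

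The remaining FAT1 and CCNE1 levels did not follow the same order in both lines. In HN6, siFAT1-1 left 17.1% of FAT1 and 36.8% of CCNE1, and siFAT1-2 left 28.0% of FAT1 and 16.7% of CCNE1. In HN30, siFAT1-1 left 39.3% of FAT1 and 17% of CCNE1, and siFAT1-2 left 65.4% of FAT1 and 26.5% of CCNE1. As a description, the fitted log2 fold change of CCNE1 with siFAT1-1 against siFAT1-2 was 0.28 (SE 0.42), and the difference of HN30 from HN6 was -0.22 (SE 0.61).

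**Figure D1:**
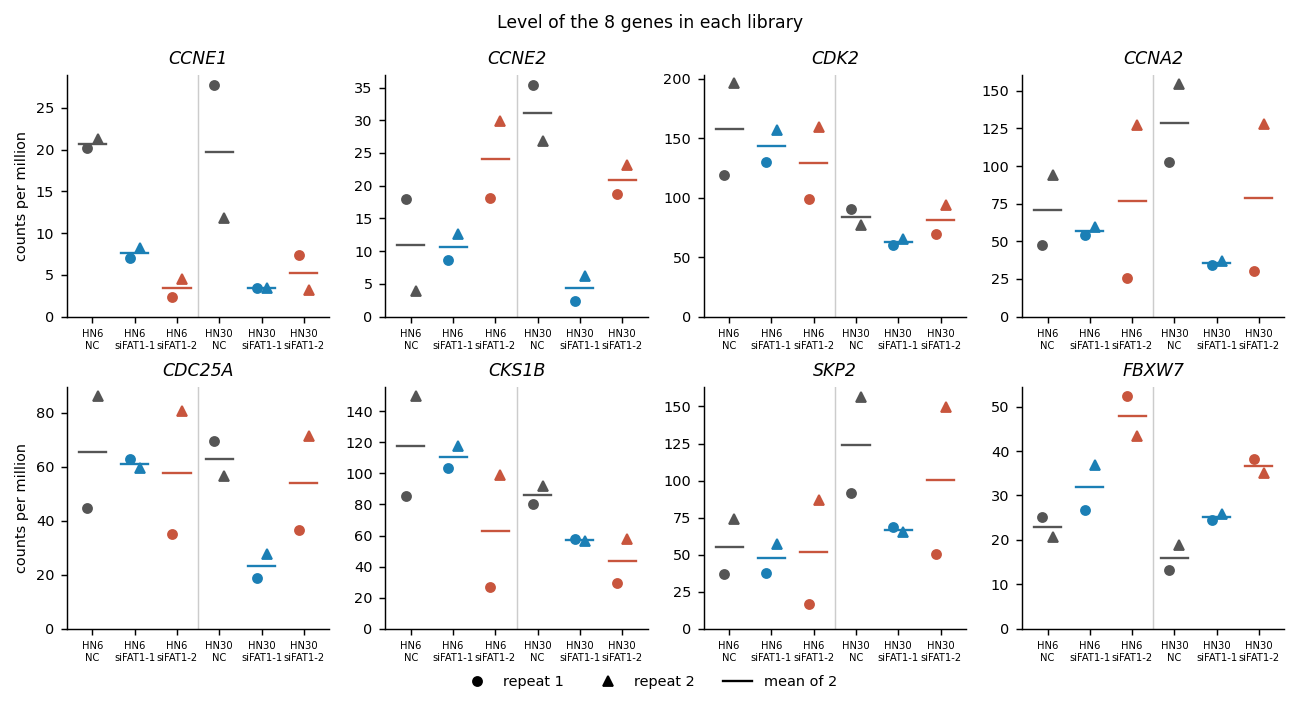
CPM (vertical axis, linear from 0) of the 8 genes in the 6 conditions, with circles for repeat 1, triangles for repeat 2 and a line at the mean of the 2 repeats. CCNE1 lies lower and FBXW7 higher in all 8 knockdown libraries than in the NC libraries of their line, whereas the other 6 genes overlap in at least 1 line.

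CCNE2, the gene of cyclin E2 (chr8:94879770-94896678, minus strand, 12 exons), was below both NC libraries in all 4 knockdown libraries of HN30, and overlapped with them in HN6. The HN6 libraries held it at 17.9 and 3.83 CPM with NC, 8.65 and 12.6 CPM with siFAT1-1 and 18.2 and 29.8 CPM with siFAT1-2. The NC libraries of HN6 differed 4.68-fold and enclosed both siFAT1-1 libraries. The HN30 libraries held it at 35.3 and 26.8 CPM with NC, 2.39 and 6.23 CPM with siFAT1-1 and 18.7 and 23.1 CPM with siFAT1-2, where the siFAT1-1 libraries were lowest. The log2 fold change was -1.71 in HN30 (SE 0.53, edgeR adjusted p = 0.214) and 0.55 in HN6 (SE 0.57, adjusted p = 0.688). Knockdown in HN30 passed the thresholds the study used for differentially expressed genes, which ask for P below 0.05 without adjustment and a log2 fold change beyond 1 in either direction, but had no adjusted p under 0.05. Without HN30 NC repeat 1 it did not pass them, and leaving out 1 library at a time gave -2.14 to -1.44. The interaction of line and knockdown, -2.26 (SE 0.80), had an edgeR adjusted p of 0.974. It was -3.76 (edgeR adjusted p = 0.0136) without HN6 NC repeat 1 and -1.51 (edgeR adjusted p = 0.988) without HN6 NC repeat 2. Within repeat 1 the mean knockdown difference in HN6 was -0.51 in log2 CPM and within repeat 2 it was 2.32, so its direction in HN6 depended on the repeat. CCNE2 overlaps INTS8 and NDUFAF6 on the other strand.

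Per kilobase of the canonical transcript (1954 nt for CCNE1 and 2674 nt for CCNE2), the 2 cyclin E transcripts could be set side by side. With NC, CCNE1 made up 60.7% and 88.3% of their sum in the HN6 libraries and 51.8% and 37.6% in the HN30 libraries. With siFAT1-2 its share was 15.2% and 17.2% in HN6 and 34.8% and 15.7% in HN30, below both NC libraries in each line. With siFAT1-1 the share was 52.5% and 47.4% in HN6, also below both NC libraries. In HN30 it was 65.8% and 42.5%, where it overlapped the NC libraries and both genes were low. The summed level in HN30 was 27.4 and 16.0 CPM per kb with NC and 2.62 to 10.8 CPM per kb in the knockdown libraries, with no overlap. In HN6 it was 17.1 and 12.3 CPM per kb with NC and 6.82 to 13.5 CPM per kb with knockdown, and siFAT1-2 repeat 2 lay between the NC libraries. These shares rest in part on the values by which CCNE1 was selected and were not tested.

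**Figure D2:**
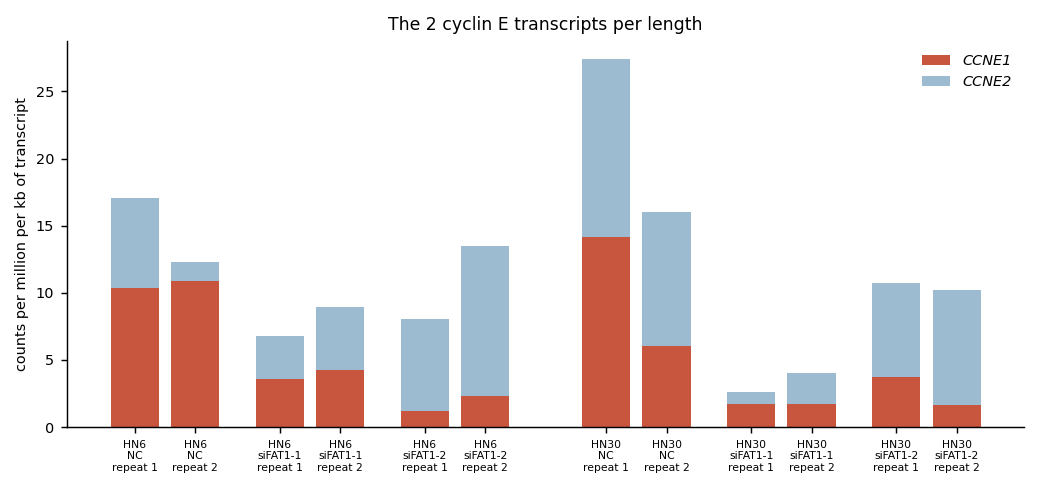
Stacked bars of CCNE1 (red) and CCNE2 (blue) in CPM per kilobase of the canonical transcript, 1 bar per library, from 0. The CCNE1 part is lower in every knockdown bar than in the NC bars of its line, whereas the CCNE2 part in HN6 siFAT1-2, at 6.80 and 11.2, is above both NC bars (6.71 and 1.43).

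CDK2, the kinase partner (chr12:55966781-55972789, plus strand, 7 exons), overlapped between knockdown and NC libraries in both lines. In HN30 it was at 90.2 and 77.1 CPM with NC, 59.7 and 65.0 CPM with siFAT1-1 and 69.1 and 93.8 CPM with siFAT1-2. In HN6 it was at 119 and 197 CPM with NC, 130 and 156 CPM with siFAT1-1 and 98.8 and 160 CPM with siFAT1-2. The highest libraries were a knockdown library in HN30 and an NC library in HN6, and the log2 fold change over both lines was -0.21 (95% interval -0.62 to 0.19, edgeR adjusted p = 0.623). CDK2 overlaps PMEL on the other strand, and whether reads were counted by strand is not given in the sources used here.

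CCNA2, the gene of cyclin A2 (chr4:121816444-121823883, minus strand, 8 exons), had the largest spread between repeats of the 8 genes. HN6 libraries had 47.6 and 94.1 CPM with NC, 54.3 and 59.4 CPM with siFAT1-1 and 25.6 and 128 CPM with siFAT1-2. HN30 libraries had 103 and 154 CPM with NC, 34.6 and 36.6 CPM with siFAT1-1 and 30.5 and 128 CPM with siFAT1-2. With siFAT1-2, repeat 1 lay below both NC libraries in each line, and repeat 2 lay above them in HN6 and between them in HN30. The log2 fold change was -0.66 over both lines (95% interval -1.67 to 0.35, edgeR adjusted p = 0.542) and -1.28 in HN30 (SE 0.61, adjusted p = 0.384). Without HN30 siFAT1-2 repeat 2 it was -1.03 over both lines and passed the thresholds of the study. In HN30 these thresholds were also passed in the paired fit with a replicate block, with limma-voom and with DESeq2. CCNA2 overlaps EXOSC9 on the other strand.

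CDC25A, the phosphatase that activates CDK2 (chr3:48157146-48188417, minus strand, 15 exons), was lowest in HN30 with siFAT1-1. There it was at 18.7 and 27.8 CPM, against 69.6 and 56.5 CPM with NC and 36.4 and 71.3 CPM with siFAT1-2. In HN6 it was at 44.7 and 86.2 CPM with NC, 62.7 and 59.6 CPM with siFAT1-1 and 34.9 and 80.6 CPM with siFAT1-2, and the groups overlapped. The log2 fold change was -0.43 over both lines (95% interval -1.15 to 0.28, edgeR adjusted p = 0.573), -0.83 in HN30 and -0.14 in HN6.

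CKS1B, the adaptor of SKP2 that also binds CDK2 (chr1:154974653-154979251, plus strand, 3 exons), had its lowest values in repeat 1 of siFAT1-2 in both lines. Its level in HN6 was 85.6 and 150 CPM with NC, 103 and 118 CPM with siFAT1-1 and 27.1 and 98.9 CPM with siFAT1-2. Its level in HN30 was 80.2 and 91.7 CPM with NC, 57.7 and 56.5 CPM with siFAT1-1 and 29.3 and 58.0 CPM with siFAT1-2, so that all 4 knockdown libraries lay below both NC libraries. The log2 fold change with siFAT1-2 was -0.94 (SE 0.35, edgeR adjusted p = 0.0990), and with siFAT1-1 it was -0.33 (SE 0.35, adjusted p = 0.640). In the paired fit with a replicate block the siFAT1-2 value was -1.04 (edgeR adjusted p = 0.0384) and past the threshold. It was also past it, at -1.28 (edgeR adjusted p = 0.0431), without HN6 siFAT1-2 repeat 2. The difference between the siRNAs was 0.61 (95% interval -0.15 to 1.36, edgeR adjusted p = 0.240). The gene has processed pseudogenes, and how reads with several matches were counted is not given in the sources used here.

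SKP2 (chr5:36151989-36196849, plus strand, 10 exons) overlapped between knockdown and NC in both lines. In HN6 it was at 36.7 and 73.9 CPM with NC, 37.4 and 57.5 CPM with siFAT1-1 and 16.6 and 86.6 CPM with siFAT1-2. In HN30 it was at 91.5 and 156 CPM with NC, 68.4 and 65.4 CPM with siFAT1-1 and 50.8 and 150 CPM with siFAT1-2. The log2 fold change was -0.37 (95% interval -1.23 to 0.49, edgeR adjusted p = 0.697). CDKN1B, the gene of the p27 protein that SKP2 and CKS1B target, had a log2 fold change of -0.07 (95% interval -0.76 to 0.62, edgeR adjusted p = 0.941). SKP2 overlaps NADK2 on the other strand.

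FBXW7, the ligase receptor for cyclin E (chr4:152320544-152536092, minus strand, 14 exons), was above the controls of the same line in each knockdown library. The level in HN6 was 25.1 and 20.7 CPM with NC, 26.8 and 37.0 CPM with siFAT1-1 and 52.5 and 43.4 CPM with siFAT1-2. The level in HN30 was 13.1 and 18.8 CPM with NC, 24.5 and 25.9 CPM with siFAT1-1 and 38.3 and 35 CPM with siFAT1-2. The siFAT1-2 libraries lay above the siFAT1-1 libraries in both lines, and the lowest siFAT1-1 library of HN6 was close to the higher NC library. Group means with siFAT1-1 and siFAT1-2 were 139% and 209% of the NC mean in HN6, and 158% and 229% in HN30. Its spread between repeats was the smallest of the 8 genes, with an SD within conditions of 0.234 in log2 CPM against 0.955 for CCNA2.

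With siFAT1-2, FBXW7 rose by a log2 fold change of 1.13 (SE 0.18, edgeR adjusted p = 0.00401), and it passed the adjusted threshold in all 12 fits that left out 1 library (adjusted p = 0.00522 to 0.0159). With siFAT1-1 the log2 fold change was 0.57 (SE 0.18, edgeR adjusted p = 0.107). With both siRNAs together it was 0.88 (SE 0.22, edgeR adjusted p = 0.0980), 0.77 in HN6 and 0.93 in HN30. The DESeq2 adjusted p for the joint comparison was 0.00334, and the interaction with line was 0.16 (95% interval -0.57 to 0.88). The difference of siFAT1-1 from siFAT1-2 was -0.56 (SE 0.18, edgeR adjusted p = 0.0454). That call was lost in the paired fit with a replicate block (edgeR adjusted p = 0.0600), without the filter on low counts (0.0632) and in 8 of the 12 fits without 1 library (0.0520 to 0.120). Those were the fits without any 1 of the 4 siFAT1-1 libraries, HN6 siFAT1-2 repeat 1, either HN30 siFAT1-2 repeat or HN30 NC repeat 2. The summed squamous epithelial markers also differed between the siRNAs, at 3053 to 5973 CPM with siFAT1-1 and 1181 to 2726 CPM with siFAT1-2, and their part in the FBXW7 difference was not tested.

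**Figure D3:**
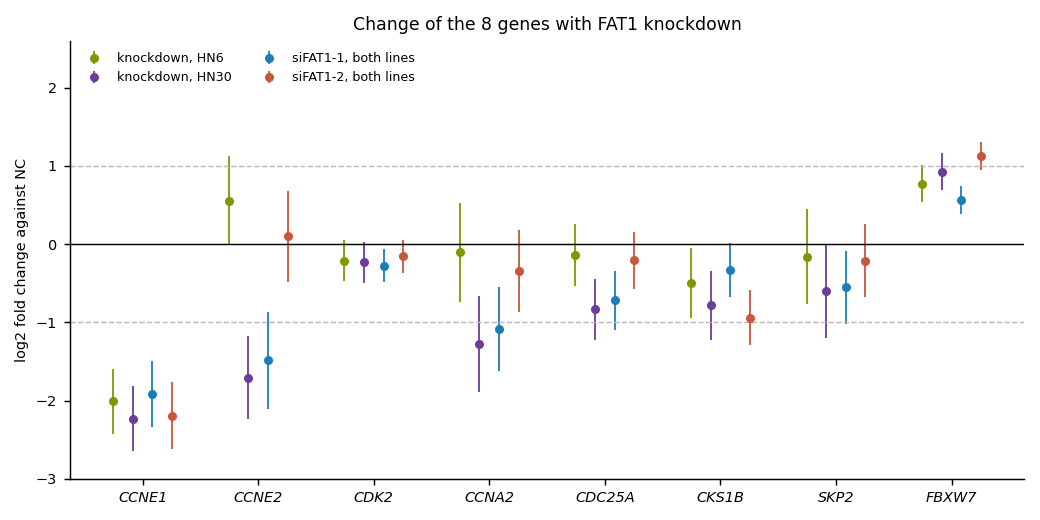
Log2 fold change against NC (vertical axis) of the 8 genes for knockdown in HN6, knockdown in HN30, siFAT1-1 in both lines and siFAT1-2 in both lines, with bars of 1 standard error and dashed lines at -1 and 1. CCNE1 lies near -2 in all 4 comparisons, FBXW7 above 0 in all 4, and CCNE2 at 0.55 in HN6 and -1.71 in HN30.

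Counted over the 7 members other than CCNE1, 0 or 1 passed each threshold in the main edgeR fit of each knockdown comparison. With 7 genes, counts this small are not read as a result about the members. With both siRNAs and both lines together, 0 of 7 passed the thresholds of the study, against 3.07% of the 13887 genes tested, and 0 had an edgeR adjusted p under 0.05, against 0.547%. FBXW7 was the 1 member with an unadjusted P under 0.05, beside 2016 of the 13887 genes tested. It was past the adjusted threshold with DESeq2 but not with limma-voom. With siFAT1-1, 1 of 7 (CCNE2) passed the thresholds of the study, against 5.58% of all genes, and 0 the adjusted edgeR threshold, against 3.25%. An unadjusted P under 0.05 was found for 2 members, beside 2643 of the 13887 genes. For this siRNA, DESeq2 and limma-voom passed 1 (FBXW7) and 0 members at an adjusted p under 0.05. The CCNE2 value there, -1.49 (SE 0.62), was no longer past the thresholds of the study without HN6 NC repeat 1, without HN6 siFAT1-1 repeat 1, or without either HN30 repeat of NC or of siFAT1-1, and without HN6 NC repeat 2 it was -2.04 (edgeR adjusted p = 0.0256). With siFAT1-2, 1 of 7 (FBXW7) passed each threshold, against 9.06% and 11.8% of all genes. In HN30, 1 of 7 (CCNE2) passed the thresholds of the study, against 5.54%, and 0 the adjusted threshold, against 0.0576%. In HN6 0 passed either, against 4.04% and 0.0072%, and 1 (FBXW7) had an unadjusted P under 0.05, beside 1960 of the 13887 genes. DESeq2 put FBXW7 past the adjusted threshold in each line and limma-voom in neither. In the paired fit with a replicate block, 2 of 7 passed the thresholds of the study with siFAT1-2 (CKS1B and FBXW7) and 2 of 7 in HN30 (CCNE2 and CCNA2). For CCNE1 itself the same shares of all genes apply, and nothing is read from them since its values chose it.

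Knockdown and control libraries did not overlap in either line, with the same direction in both, in 1 of the 7 (FBXW7), against 5.44% of all genes. Within HN30 this held for 3 of 7 (CCNE2, CKS1B and FBXW7), against 20.8%, and within HN6 for 1 of 7 (FBXW7), against 16.1%. The median log2 fold change of the 7 was -0.43, beside 0.02 for all genes tested, and it was -0.78 in HN30 and -0.14 in HN6, beside -0.01 and -0.03 for all genes. The comparison of siFAT1-1 with siFAT1-2 gave 1 of 8 members (CCNE2, -1.59, SE 0.59, edgeR adjusted p = 0.0813) past the thresholds of the study, against 12.4% of all genes, and 1 (FBXW7) past the adjusted threshold, against 17.4%. CCNE2 was not past the thresholds of the study without HN6 siFAT1-2 repeat 2 or either HN30 siFAT1-1 repeat, and it was past the adjusted threshold with DESeq2 (adjusted p = 0.0241) and, in edgeR, without HN6 NC repeat 2 (adjusted p = 0.0120). The interaction of line and knockdown gave 1 of 8 (CCNE2), against 2.53%, and 0 at an edgeR adjusted p under 0.05, against 0% of all genes. It had 1 member at an unadjusted P under 0.05, beside 556 of the 13887 genes tested. DESeq2 and limma-voom passed 0 members in the interaction at an adjusted p under 0.05. Without HN30 NC repeat 1, 0 members passed the thresholds of the study in it.

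The lines were also compared with NC alone. CDK2 was lower in HN30 than in HN6, with a log2 fold change of -0.91 (SE 0.31, edgeR adjusted p = 0.0452). This call was lost without either HN6 or HN30 repeat of siFAT1-1, without HN6 NC repeat 2 and without either HN30 NC repeat (adjusted p = 0.0658 to 0.265). CCNE2 had a log2 fold change of 1.52 (SE 0.65, edgeR adjusted p = 0.101) and passed the thresholds of the study, but not without either HN6 siFAT1-1 repeat, HN6 NC repeat 2, or either HN30 repeat of NC or siFAT1-2. Leaving out 1 library gave 0.79 (without HN6 NC repeat 2) to 3.0 (without HN6 NC repeat 1, edgeR adjusted p = 0.00524), and limma-voom gave 1.94 with an adjusted p of 0.0270. CCNE1, whose NC libraries entered its selection, is given without a test, at -0.07 (SE 0.49). In edgeR with all libraries, each threshold was passed by 1 of 8 members, against 30.7% and 32.6% of all genes.

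Per kilobase, the order of the levels with NC in HN6 was CKS1B (151 ± 58.2 CPM per kb), CDK2 (70.4 ± 24.6), CCNA2 (25.8 ± 12), CDC25A (17 ± 7.64), SKP2 (14.9 ± 7.08), CCNE1 (10.6 ± 0.363), CCNE2 (4.07 ± 3.73) and FBXW7 (4.06 ± 0.554; SD, n = 2). In HN30 it was CKS1B (110 ± 10.4), CCNA2 (46.8 ± 13.2), CDK2 (37.3 ± 4.12), SKP2 (33.3 ± 12.3), CDC25A (16.4 ± 2.41), CCNE2 (11.6 ± 2.26), CCNE1 (10.1 ± 5.78) and FBXW7 (2.83 ± 0.715). In HN6, neighbours from CCNA2 to CCNE1 and the pair of CCNE2 and FBXW7 lay within the larger SD of the pair, and in HN30 this held for neighbours from CCNA2 to SKP2 and for the 2 cyclin E genes. The lengths are those of canonical transcripts in GENCODE 44, and the annotation used for counting is not given in the sources used here.

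The repeats of siFAT1-2 differed more in CCNA2, SKP2 and CKS1B than in FBXW7 in both lines. With siFAT1-1 the gaps of CCNA2 were 1.09-fold in HN6 and 1.06-fold in HN30, against 1.38-fold and 1.06-fold for FBXW7. In HN6 siFAT1-2, repeat 2 was 4.98-fold above repeat 1 for CCNA2, 5.21-fold for SKP2, 3.65-fold for CKS1B, 2.31-fold for CDC25A and 1.91-fold for CCNE1, while FBXW7 was 1.21-fold higher in repeat 1. The HN30 siFAT1-2 repeats had gaps in the same direction for CCNA2 (4.19-fold), SKP2 (2.95-fold) and CKS1B (1.98-fold), whereas CCNE1 was 2.33-fold higher in repeat 1. MKI67 and TOP2A moved with CCNA2 in both siFAT1-2 pairs, TOP2A being 6.30-fold and 3.81-fold higher in repeat 2. In the HN6 NC pair they moved against it. There MKI67 was 2.97-fold and TOP2A 5.62-fold higher in repeat 1, and CCNA2 1.98-fold and the proliferation marker PCNA 1.46-fold higher in repeat 2. In the HN30 NC pair MKI67, TOP2A and CCNA2 were all higher in repeat 2, and PCNA was 1.81-fold higher in repeat 1. The part of MKI67 and TOP2A in the values of CCNA2, SKP2 and CKS1B was not tested. Set against the NC library of the same repeat, CCNE1 was lower in 8 of 8 knockdown libraries and FBXW7 higher in 8 of 8. CKS1B was lower in 7, CDK2, CCNA2, CDC25A and SKP2 each in 6, and CCNE2 in 5.

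Other cell cycle genes were taken from lists by role. The shares of all genes past each threshold, given above, are repeated beside the counts. Of 17 genes of replication licensing and S phase entry, all tested, 5 passed the thresholds of the study downward in the joint comparison and 0 upward (3.07% of all genes in either direction). An edgeR adjusted p under 0.05 was found for 0 of the 17 (0.547% of all genes). An unadjusted P under 0.05 was found for 7, beside 2016 of the 13887 genes tested. The 5 past the thresholds of the study were MCM2 (log2 fold change -1.22, SE 0.38), MCM4 (-1.07, SE 0.36), MCM5 (-1.29, SE 0.32) and MCM6 (-1.03, SE 0.43), subunits of the replicative helicase, and its partner CDC45 (-1.28, SE 0.40). The median of the list was -0.74. In HN30, 11 of the 17 passed downward (median -1.18, 5.54% of all genes), in HN6 0 did (median -0.31, 4.04%), and 1 passed in the interaction (2.53%). With siFAT1-2, MCM5 fell past the adjusted threshold (-1.38, edgeR adjusted p = 0.0409). Of the 13 genes of the RB and E2F families, 2 passed downward in the joint comparison (3.07%) and 4 in HN30 (5.54%). In the joint comparison these were E2F1 (-1.49, SE 0.57) and E2F2 (-1.50, SE 0.56), activators of G1/S transcription. E2F1 was at -2.71 in HN30 and its interaction with line was -1.79 (SE 0.67, edgeR adjusted p = 0.974).

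Of 14 tested cyclin D and other kinase genes of 16 listed, CDC25B (-1.15, SE 0.33), a phosphatase of mitotic entry, passed the thresholds of the study downward in the joint comparison (3.07%), and the median was -0.45. With siFAT1-1, the G1 kinase gene CDK4 fell (log2 fold change -1.40, edgeR adjusted p = 0.0289) and so did CDC25B (-1.66, edgeR adjusted p = 0.0162). With siFAT1-2, the cyclin genes CCND1 (-1.40, edgeR adjusted p = 0.00683) and CCND3 (-0.73, edgeR adjusted p = 0.0166) fell and CDK7 of the CDK-activating kinase rose (0.64, edgeR adjusted p = 0.0366). Of 7 CDK inhibitors, CDKN2B, the gene of p15, passed upward in the joint comparison (1.33, SE 0.43), where 3.07% of all genes passed. CDKN1A was at 0.58 (95% interval -0.76 to 1.91) in the joint comparison, at 1.76 (SE 0.62) in HN30, where it passed the thresholds of the study upward together with CDKN2B (5.54%), and at -0.49 (SE 0.56) in HN6, where CDKN2A passed upward (1.04, SE 0.42; 4.04%). The interaction for CDKN1A, 2.26 (SE 0.82), had an edgeR adjusted p of 0.974. With siFAT1-2, CDKN2B rose (1.81, edgeR adjusted p = 0.00900) and CDKN2D, the gene of p19, fell (-0.83, edgeR adjusted p = 0.0484). Of 16 genes of the SCF and APC ligases and their regulators, 0 passed the thresholds of the study in the joint comparison (3.07%) and the median was -0.20. Downward, 1 passed with siFAT1-1 (5.58%), 1 with siFAT1-2 (9.06%) and 1 in HN30 (5.54%), and upward 1 in HN6 (4.04%). FZR1, the activator of the G1 form of APC, fell with siFAT1-2 (-0.96, edgeR adjusted p = 0.00738), as did BTRC, an SCF substrate receptor (-0.47, edgeR adjusted p = 0.0444). These siRNA comparisons called 3.25% (siFAT1-1) and 11.8% (siFAT1-2) of all genes by the adjusted p. In HN30, 3 of 8 proliferation markers passed the thresholds of the study downward (MKI67 at -1.70, PCNA at -1.22 and RRM2 at -1.07), against 5.54% of all genes, with a median of -0.98. With siFAT1-1 PCNA passed (-1.01) and with siFAT1-2 TK1 (-1.18), against 5.58% and 9.06%. In HN6 and in the joint comparison 0 of 8 passed, against 4.04% and 3.07% of all genes. In the latter 0 also had an unadjusted P under 0.05 in edgeR, beside 2016 of the 13887 genes tested. There MKI67 was at -0.75 (95% interval -2.01 to 0.51), PCNA at -0.63 (95% interval -1.39 to 0.12) and TOP2A at -0.25 (95% interval -1.66 to 1.15). Their summed level was 1590 to 1854 CPM with NC in HN30 and 537 to 1357 CPM with knockdown, and in HN6 1405 to 1781 CPM with NC and 600.4 to 2235 CPM with knockdown.

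**Figure D4:**
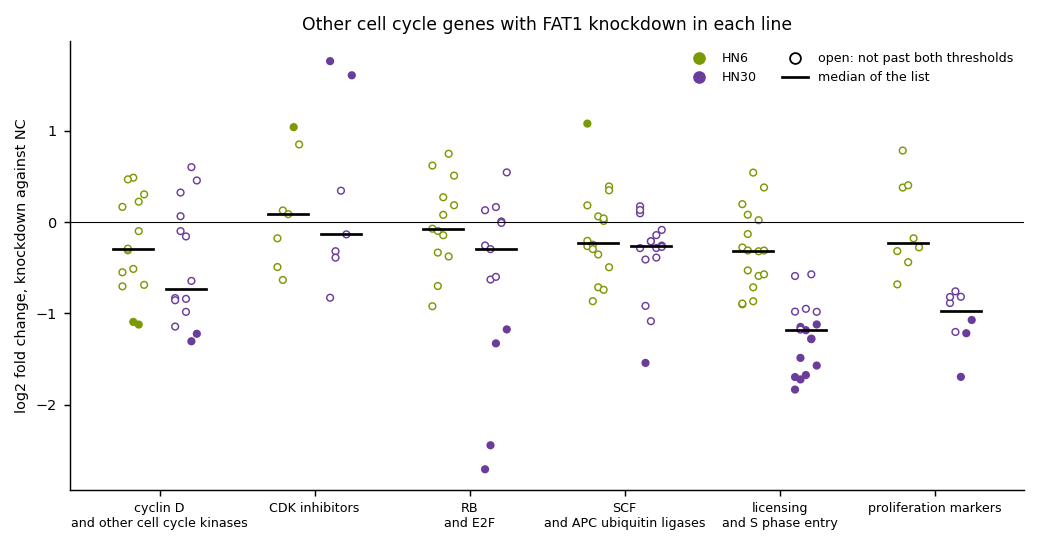
Log2 fold change of knockdown against NC (vertical axis) for the tested genes of 6 lists by role, in HN6 (green) and HN30 (purple), with filled points for genes past the thresholds of the study and a line at the median of each list. The licensing list has 11 filled points in HN30 and 0 in HN6.

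The genes whose pattern was most like that of CCNE1 were found by the root mean square difference in log2 CPM over the 12 libraries, each gene being set to 0 at the NC mean of each line. Of 13886 genes the closest were CD83, an immunoglobulin family surface protein (0.554), MRGPRX3, an orphan receptor (0.578), FAM25A (0.640), PPIL1, a spliceosomal peptidyl-prolyl isomerase (0.689), and IDH2, the mitochondrial isocitrate dehydrogenase (0.692), beside a median of 1.86 over all genes. MRGPRX3 and FAM25A reached no more than 2.09 and 1.61 CPM and were at 0 in at least 1 library. Of the partners, 5 were closer to CCNE1 than the median gene and CCNE2 and FBXW7 were farther, with CKS1B the closest at rank 636 (1.31) and CCNA2 next at rank 1341 (1.45), then CDC25A at 1521, SKP2 at 2398, CDK2 at 3133, CCNE2 at 9338 and FBXW7 at 12825 (2.52). The ranks describe 12 libraries that share their NC means, and by the correlation of the same values 0 of the 5 closest genes were again among the first 5. They are distances to the values by which CCNE1 was selected, so a small fall alone can bring a gene nearer. CDK2 held rank 3133 with group means of only -0.42 to -0.05. The ranks were not tested and are not read as a shared pattern of the partners.

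Of 8 neighbours of CCNE1 in 19q12, 6 were tested. In the joint comparison 0 of these 6 passed the thresholds of the study and 0 had an edgeR adjusted p under 0.05, against 3.07% and 0.547% of all genes. An unadjusted P under 0.05 was found for 2 of them, beside 2016 of the 13887 genes tested. URI1 was at 0.36 (SE 0.16), PLEKHF1 at -0.50 (SE 0.20), POP4 at -0.21 (SE 0.14), UQCRFS1 at -0.07 (SE 0.16), C19orf12 at -0.06 (SE 0.21) and TSHZ3 at -0.57 (SE 0.53). With siFAT1-2, TSHZ3 fell (-1.72, edgeR adjusted p = 0.0225), where 11.8% of all genes passed the adjusted threshold. Between the lines with NC, UQCRFS1 (-0.76, edgeR adjusted p = 0.0251) and POP4 (-0.92, edgeR adjusted p = 0.0102) were lower and TSHZ3 (2.15, edgeR adjusted p = 0.0211) was higher in HN30, beside -0.07 for CCNE1. In that comparison 32.6% of all genes passed the adjusted threshold, and these 3 calls are not read as a result about the region.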

How the data were processed

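RNA-seq of 12 libraries (HN6 and HN30, each with NC, siFAT1-1 or siFAT1-2, 2 repeats at separate times) was analysed from the table of gene counts that the authors deposited. The submitters' processing notes name HISAT2, featureCounts and hg38 without versions, and the annotation, strand setting and treatment of multiply matched reads are not given in the sources used here. Each value is a whole-number read count per gene symbol, not normalized by the authors; all 12 columns were used and 0 were left out. Since 27 symbols had been turned into dates, those entries kept that form, and none is named here.

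The members and lists were chosen with earlier results of these data known. Counts were fitted with edgeR 4.0.16 in R 4.3.3 (TMM factors 0.897 to 1.06, filterByExpr with a minimum count of 10, glmQLFit, glmQLFTest), which kept 13887 genes, with the Benjamini-Hochberg adjustment over all of them. The joint comparison had a term for cell line. The fits for each siRNA and between the siRNAs used 1 coefficient per siRNA and also a term for cell line. Those for each line, the interaction of line and knockdown, and NC alone used 1 coefficient per condition. The study's tool, limma-voom (limma 3.58.1), and DESeq2 1.42.0 were alternatives, besides other size factors, no filter, no cell line term, a replicate block and leaving out each library. CPM were scaled by the summed counts of the tested genes and TMM factors, and log2 CPM used a prior count of 2. The test was tried on simulated counts, drawn without differences between the lines, between the 2 siRNAs against FAT1 or between repeats. Their dispersion was below the 0.139 fitted here. The trial therefore does not show how the test performs on these libraries. Named genes were the members, FAT1, up to 4 genes per list with the smallest P past the study thresholds in the joint comparison, MKI67, PCNA, TOP2A, CDKN1A, CDKN1B, the 5 genes most like CCNE1 and the tested 19q12 neighbours. MCM6, CDK4, CCND1, CCND3, CDK7, CDKN2A, CDKN2D, BTRC, FZR1, RRM2 and TK1 fall outside this rule and were named after their values were seen, as were overlapping genes. Lists of squamous and other cell type markers served as a check of the lines.

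The labels give the repeat number as a separate time, so that equal numbers pair libraries within a line. Deviations of equally numbered libraries from their condition means correlated across genes at 0.0778 to 0.242 in HN6 and at -0.0337 to 0.405 in HN30. Gene positions and transcript lengths are from GENCODE 44 (GRCh38), and promoters from RefSeq (GRCh38.p14). Depth of at least 26430049 counts was not the main limit, since with 2 libraries a condition the spread between repeats exceeds counting error (chi-square of 14.7 to 247 per degree of freedom for the 2 repeats of each condition).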

Additional observations from a re-analysis of the deposited data

Results flagged for a closer look

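Among the 4 knockdown libraries of a line, 4 values stood far from the other 3, of 16 such groups of 4 examined (8 genes in 2 lines). The rule flags about 1 in 20 groups drawn from 1 population. That rate does not apply here, since each group mixes 2 siRNAs and the genes share their libraries. All 4 values were in siFAT1-2 libraries. CCNE1 was at 7.32 CPM in HN30 siFAT1-2 repeat 1, against 3.14 to 3.37 CPM in the others, and still below both NC libraries. CCNA2 was at 128 CPM in HN30 siFAT1-2 repeat 2, against 30.5 to 36.6 CPM. CKS1B was at 27.1 CPM in HN6 siFAT1-2 repeat 1, against 98.9 to 118 CPM, and at 29.3 CPM in HN30 siFAT1-2 repeat 1, against 56.5 to 58.0 CPM.

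The change of FBXW7 differed between the siRNAs, with a log2 fold change of siFAT1-1 against siFAT1-2 of -0.56 (edgeR adjusted p = 0.0454) and siFAT1-2 higher in both lines. The call was lost with the replicate block (edgeR adjusted p = 0.0600), without the filter on low counts (0.0632) and in 8 of the 12 fits that left out 1 library.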

How the results depend on the processing

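Fold changes of single members kept their direction in all 349 refits. These covered the joint comparison and, in the other comparisons, only members with an unadjusted edgeR P under 0.05. CCNE2 in HN6, whose direction depended on the repeat, was not among them. The count of members past the thresholds of the study moved as follows. With siFAT1-1 it was 1, and 0 with the adjusted p threshold or limma-voom and 2 without the filter or with DESeq2. With siFAT1-2 it was 1, and 2 with limma-voom or the replicate block. In HN30 it was 1, and 0 with the adjusted p threshold and 2 without the filter, with DESeq2, with limma-voom, with the replicate block or with the libraries of HN30 alone. In the interaction it was 1, and 0 with the adjusted p threshold. Leaving out 1 library gave 0 to 1 in the joint comparison, 0 to 2 with siFAT1-1, 1 to 2 with siFAT1-2, 0 to 2 between the siRNAs, 0 to 1 in HN6, 0 to 4 in HN30, 0 to 2 in the interaction and 0 to 2 between the lines. The highest count, 4 in HN30, came without HN30 siFAT1-2 repeat 2 (CCNE2, CCNA2, CDC25A and CKS1B). Apart from these and the calls given in the report, the replicate block changed no call of a member by the study or adjusted thresholds. Members with an unadjusted P under 0.05 in HN30 were 2 in the main fit, beside 1977 of 13887 genes. With the block they were 5 (CCNE2, CCNA2, CDC25A, CKS1B and FBXW7). Between the siRNAs they were 2, beside 4700 genes, and 3 with the block, which added CKS1B. The shares of all genes in the fits with the block are not given here. Where 1 library of a condition was left out, the other was taken to vary like the rest. The log2 fold change of CCNE1 in the joint comparison ran from -2.23 to -1.74 without 1 library. The cause of these shifts was not tested. With 2 libraries a condition, the 95% interval for CCNA2 in the joint comparison was as wide as -1.67 to 0.35.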
